A study of Homo sapiens with 12 samples.

Results

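GC-poor protein-coding promoters were examined for H3K4me3 in BON1 cells, an established human pancreatic neuroendocrine tumor line. Of 20098 protein-coding genes of GENCODE release 44 on chromosomes 1 to 22 and X (GRCh37), 3961 (19.7%) had a GC content under 49% in the 1 kb centred on their most 5′ annotated end. The rule used only the reference sequence and no measured value. A promoter was called marked in a library when at least 1 base of a peak lay within 1 kb of that 5′ end. H3K4me3 was mapped by CUT&RUN, which sequences the DNA that an antibody-tethered nuclease cuts free. Control cells (BON1/TGL/pQ) were set against cells overexpressing HA-tagged Bcl-xL (BON1/TGL/HA-Bcl-xL), a protein that blocks apoptosis, with 500000 cells for each condition and puromycin in the medium of both. The labels gave 3 replicates for each line and antibody, and peak lists of 11 libraries were used: for H3K4me3, replicates 1 to 3 of control cells and 2 and 3 of HA-Bcl-xL cells, and for a background reaction with IgG, 3 replicates of each line. The H3K4me3 library of HA-Bcl-xL replicate 1 was not analysed here. Whether the replicates came from separate cultures, and whether each line is 1 clone, is not given in the sources used here, so p-values measure the spread between these libraries only.

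H3K4me3 is laid down at promoters by SET1 and MLL methyltransferase complexes. These complexes have subunits that bind unmethylated CpG, so the mark lies over most CpG islands, the CpG-rich stretches at the starts of broadly expressed genes. GC-poor promoters mostly lack an island. Many of them belong to genes used in a single tissue, such as olfactory receptors, hormones and liver enzymes, and carry the mark where the gene is transcribed. In a neuroendocrine cell, genes for secretory granule proteins and hormones would be examples.

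The members were poor in CpG as well as in GC. Their median GC content was 42.6%, with a range from 25.4% to 48.9%, and their median number of CpG in the 1 kb was 10, against 68 in the 16137 other promoters. The ratio of observed to expected CpG, which corrects the count for base composition, had a median of 0.222 in members and 0.741 in the others. Just under the threshold, at 48.9% GC, lay TNP1, which had no peak. Just over it, at 49%, lay ACTBL2, ADAM29 and ARR3, of which ADAM29 had a peak in 3 H3K4me3 libraries.

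As examples of members with and without the mark, the 150 bases before the most 5′ end are printed for 10 members from the GRCh37 reference. They run 5′ to 3′ on the strand of the gene, with each CG in capitals. The printed bases need not lie under the mark. The median summits of A1CF, DNAJC12, CXCL8 and SCG2, for example, lay 392, 471, 562 and 529 bp downstream of that end. A1CF (an RNA-binding cofactor of APOB RNA editing; chr10:52645436-52645585, minus strand), DNAJC12 (a co-chaperone of aromatic amino acid hydroxylases; chr10:69597947-69598096, minus strand), ABCC2 (an export pump for conjugated organic anions; chr10:101542247-101542396, plus strand) and CXCL8 (the neutrophil chemokine interleukin-8; chr4:74606086-74606235, plus strand) were marked in all 5 H3K4me3 libraries although CpG-poor. SCG2 (secretogranin II, a protein of neuroendocrine secretory granules; chr2:224467080-224467229, minus strand) was the neuroendocrine gene with the mark in all 5. GEMIN2 (a subunit of the SMN complex, which assembles spliceosomal RNPs; chr14:39583339-39583488, plus strand), CEP97 (a centriole cap protein; chr3:101443228-101443377, plus strand) and RIOK2 (a kinase of small ribosomal subunit maturation; chr5:96518952-96519101, minus strand) were marked in all 5 and stood for CpG-rich members. ALB (serum albumin; chr4:74262681-74262830, plus strand) and GCG (proglucagon; chr2:163008915-163009064, minus strand) had no peak in any library.
A1CF: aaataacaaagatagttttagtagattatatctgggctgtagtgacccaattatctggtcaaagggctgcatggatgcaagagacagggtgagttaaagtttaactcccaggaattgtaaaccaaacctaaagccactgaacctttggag
DNAJC12: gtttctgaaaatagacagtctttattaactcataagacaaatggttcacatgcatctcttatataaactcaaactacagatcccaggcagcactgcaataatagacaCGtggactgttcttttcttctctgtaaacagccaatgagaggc
ABCC2: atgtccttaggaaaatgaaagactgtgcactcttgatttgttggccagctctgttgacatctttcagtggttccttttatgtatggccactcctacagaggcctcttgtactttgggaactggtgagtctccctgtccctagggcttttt
CXCL8: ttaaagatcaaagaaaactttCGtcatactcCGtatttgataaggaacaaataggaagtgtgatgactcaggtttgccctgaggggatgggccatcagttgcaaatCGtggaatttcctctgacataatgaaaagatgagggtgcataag
SCG2: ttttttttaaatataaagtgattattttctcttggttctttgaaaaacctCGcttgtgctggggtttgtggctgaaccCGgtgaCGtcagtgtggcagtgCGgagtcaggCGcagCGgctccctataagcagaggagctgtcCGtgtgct
GEMIN2: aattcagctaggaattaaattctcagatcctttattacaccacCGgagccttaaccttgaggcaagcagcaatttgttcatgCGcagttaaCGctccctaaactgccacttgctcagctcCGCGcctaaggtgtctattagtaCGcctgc
CEP97: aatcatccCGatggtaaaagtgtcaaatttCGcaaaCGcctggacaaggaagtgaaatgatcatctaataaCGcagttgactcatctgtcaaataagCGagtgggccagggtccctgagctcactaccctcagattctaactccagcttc
RIOK2: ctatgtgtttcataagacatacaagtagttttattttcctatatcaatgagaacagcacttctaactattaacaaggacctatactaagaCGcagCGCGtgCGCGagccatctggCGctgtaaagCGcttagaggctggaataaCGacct
ALB: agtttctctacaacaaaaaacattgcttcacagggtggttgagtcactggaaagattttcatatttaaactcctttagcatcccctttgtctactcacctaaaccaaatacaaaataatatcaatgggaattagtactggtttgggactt
GCG: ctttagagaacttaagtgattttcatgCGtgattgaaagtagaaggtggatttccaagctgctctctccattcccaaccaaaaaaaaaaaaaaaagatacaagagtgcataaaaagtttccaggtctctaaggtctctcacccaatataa
These 150 bases held no CG in A1CF, ABCC2 and ALB, 1 in DNAJC12 and GCG, and 3 in CXCL8. SCG2 had 7, GEMIN2 6, CEP97 5 and RIOK2 8. The stretch of SCG2 also holds tgaCGtca, the palindromic cAMP response element known from neuroendocrine promoters. TGACGTCA was found in the 200 bases upstream of 359 of 20098 promoters (1.79%), of 13 members, and of 3 of the members marked in all 5 libraries (SCG2, TTC1 and UBN2). A match is a description of the letters and not of a bound site.

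Few GC-poor promoters carried a peak. Values of single libraries are given here and throughout in the order of their replicate numbers. In control cells 396, 321 and 294 members were marked, which is 10.0%, 8.10% and 7.42% of the 3961. With HA-Bcl-xL 369 and 352 were marked, or 9.32% and 8.89%. The mean over the 5 libraries was 8.75% ± 1.01 (SD, n = 5), against 41.7% ± 5.81 (SD, n = 5) for the other promoters. Exact 95% binomial (Clopper-Pearson) intervals of the members' shares ran from 6.63% to 10.97% over the 5 libraries and cover counting error only. Every library had a lower share in members than in the other promoters, by 32.9 percentage points on average. The two-sided exact sign-flip permutation p over the 5 libraries was 0.0625, the smallest that 5 libraries allow, and 0.0833 after Benjamini-Hochberg adjustment over the 8 such tests made here.

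The order of the libraries by members' share was that of their number of peaks on chromosomes 1 to 22 and X, from 17687 in control replicate 1 through 16363, 15478 and 12138 to 10237 in control replicate 3. The deposited lists give no read totals. From each peak's fold and p, a whole number of fragments at the summit could be solved for every member peak, to within 0.001 in −log10 p. Its median was 15, 12 and 11 in control and 14 in each HA-Bcl-xL library, with single peaks between 3 and 65. A member with no peak was therefore not called at this depth, which does not show that it lacked the mark.

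The IgG libraries gave almost no peaks at these promoters. Of the 3961 members, 7, 6 and 10 were marked in the control IgG libraries, while the IgG libraries of HA-Bcl-xL cells had 1, 2 and 0, where a count of 0 allows a share of up to 0.0757% taken as 3 counts of the total, and of up to 0.0931% by the Clopper-Pearson interval. H3K4me3 libraries exceeded IgG libraries by 8.64 percentage points (two-sided exact permutation test within lines, p = 0.01, the smallest possible; 0.08 after adjustment over the 8 tests). The excess was 5.03 points for members under 45% GC and 20.1 points with any transcript start. In all, 26 members had a peak in at least 1 IgG library, against a background of 0.786% of all protein-coding promoters, and 0 had one in 2 or more. Only PAPOLA, the nuclear poly(A) polymerase, and PCDHA4, a clustered protocadherin, had both a peak in 1 IgG library and one in all 5 H3K4me3 libraries.

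**Figure D1:**
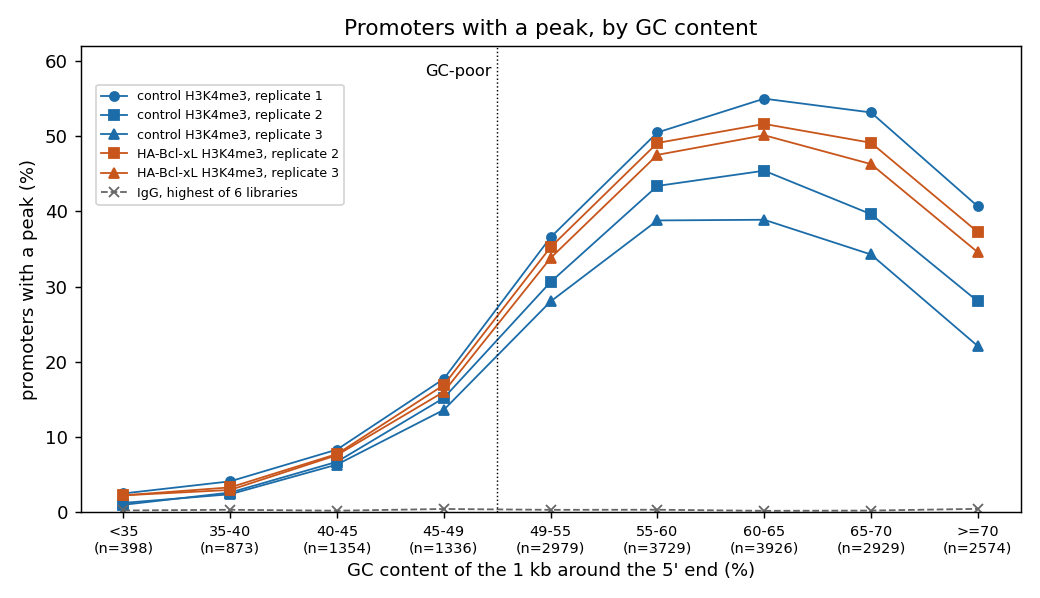
Share of protein-coding promoters with a peak within 1 kb of the 5′ end (y axis, percent) by GC content of the surrounding 1 kb (x axis, percent), with 1 line for each H3K4me3 library and the highest of the 6 IgG libraries dashed. In the 4 bins left of the dotted line, the GC-poor ones, the highest share in any H3K4me3 library rose from 2.51% under 35% GC to 17.7% at 45 to 49% GC.

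Within the GC-poor promoters the share rose with GC content. A peak in all 5 H3K4me3 libraries was found for 0.503% of the 398 promoters under 35% GC and for 1.60% of those from 35 to 40%. The share was 4.73% from 40 to 45% and 10.6% from 45 to 49%. Across the threshold it rose to 22.7% at 49 to 55% and 31.7% at 55 to 60%, and was lower again, 12.7%, at 70% GC and more. Under 35% GC only A1CF and CXCL8 were marked in all 5 libraries.

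Over the 5 libraries, 3475 members had no peak, 486 (12.3%) had a peak in at least 1 library and 222 (5.60%) in all 5. The background over all protein-coding promoters was 48.3% for at least 1 library and 21.4% for all 5. For the other promoters the shares were 57.1% and 25.2%. A further 94 members were marked in 1 library, 47 in 2, 58 in 3 and 65 in 4. Of the 486 members with any peak 45.7% were marked in all 5, and of the others with any peak 44.2%, a difference that was not tested. The 222 members stood at 210 separate places, as 22 of them shared a peak with another member.

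Within the GC-poor class, CpG-rich promoters were marked more often than CpG-poor ones. The 302 members with a CpG ratio of at least 0.6 (7.62% of members) were marked in 59.3%, 52.0% and 47.4% of cases in the 3 control libraries and in 57.0% and 52.6% of cases in the 2 HA-Bcl-xL libraries. The 3659 members below that ratio were marked in 5.93%, 4.48% and 4.13%, and in 5.38% and 5.27%. The difference was 48.6 percentage points on average, in the same direction in 5 of 5 libraries (exact sign-flip permutation p = 0.0625, the smallest possible; 0.0833 adjusted). With the split at a ratio of 0.4 it was 31.7 points. The CpG-rich members held 119 of the 222 promoters marked in all 5 libraries (53.6%), and the CpG-poor ones 103. Among members of 40 to 45% GC, 29.7% of the 74 with the higher CpG ratio were marked in all 5, against 3.28% of the 1280 with the lower one. At 45 to 49% GC the shares were 43.5% of 223 and 4.04% of 1113. Under 40% GC they were 0 of 5 and 16 of 1266 (1.26%).

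**Figure D2:**
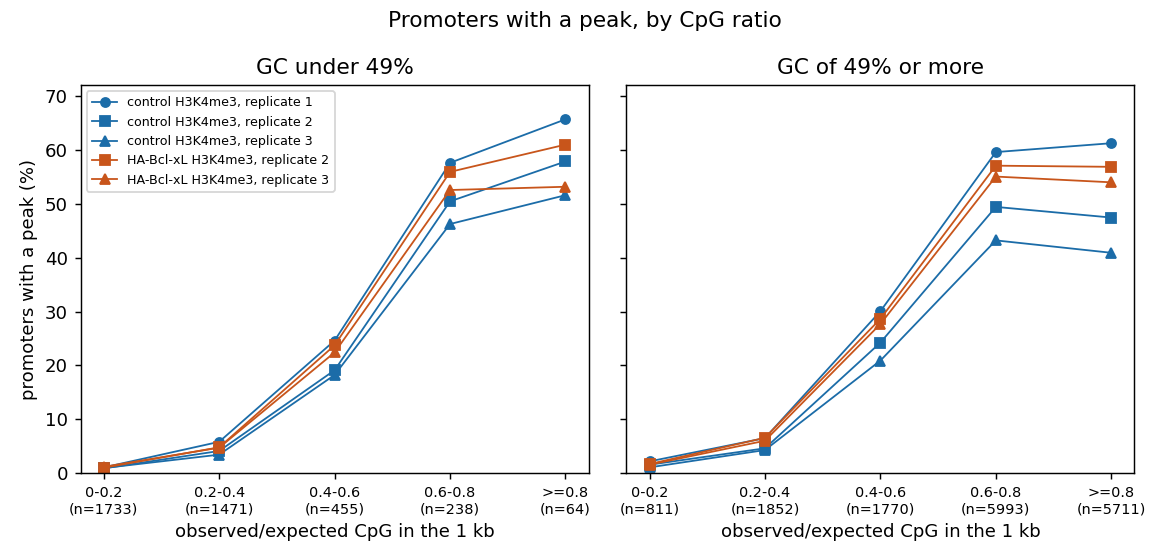
Share of promoters with a peak (y axis, percent) by the ratio of observed to expected CpG in the 1 kb (x axis), for GC-poor promoters at the left and all others at the right, with 1 line for each H3K4me3 library. At a ratio of 0.6 to 0.8 the 5 libraries lay between 46.2% and 57.6% for GC-poor promoters and between 43.2% and 59.6% for the others.

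The shares of GC-poor promoters and of the others were also compared at a given CpG ratio. From 0.6 to 0.8 the mean over the 5 libraries was 52.5% ± 4.50 (SD, n = 5) in members and 52.8% ± 6.57 (SD, n = 5) in the others. Below 0.2 the means were 1.05% ± 0.111 and 1.65% ± 0.396 (SD, n = 5 each). From 0.4 to 0.6 they were 21.6% ± 2.82 and 26.3% ± 3.70 (SD, n = 5 each). At 0.8 and above members had the higher mean, 57.8% ± 5.74 against 52.1% ± 8.00 (SD, n = 5 each). These within-bin differences were not tested.

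Other sequence features were counted in the marked and unmarked members. The median number of CpG in the 1 kb was 32 in the 222 members marked in all 5 libraries and 9 in the 3475 with no peak. TATAAA, the core of the TATA box, was searched on the gene's strand in the 50 bases upstream of the 5′ end. It was present in 3.15% of the 222, 8.35% of the 3475 and 3.39% of all promoters. CCAAT, bound by NF-Y, was searched on both strands in the 200 bases upstream and was present in 38.7%, 32.7% and 29.2%. GGGCGG, the core of Sp1 sites, was searched in the same way and was present in 15.3%, 3.71% and 46.5%. GGGCGG holds a CG, so its count moves with CpG by construction.

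The strongest peaks at solitary members were at SRP54, PSMB5, ZKSCAN3 and KNL1. A solitary promoter had no other protein-coding 5′ end within 2 kb. Strength was the percentile of the promoter's best peak by −log10 p within its own list, averaged over the 5 libraries. SRP54, the signal recognition particle subunit that binds signal peptides, was first at 98.9. It had 508, 413 and 416 bases under peaks within 1 kb in the 3 control libraries, and 474 and 570 with HA-Bcl-xL. Its control and HA-Bcl-xL values overlapped. PSMB5, a catalytic subunit of the proteasome, followed at 98.4, with 470, 207 and 275 bases in control and 391 and 570 in HA-Bcl-xL libraries. ZKSCAN3, a zinc finger protein, stood at 98.3, and KNL1, a kinetochore scaffold, at 97.9.

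GEMIN2 came next and stood at 97.7, with 35, 26 and 21 fragments at the summit in control and 27 and 34 in HA-Bcl-xL libraries. INO80D, a subunit of the INO80 chromatin remodeler, stood at 97.6, RIOK2 at 97.4, UHMK1, a kinase of splicing factors, at 97.2 and SMG8, a subunit of the SMG1 complex of nonsense-mediated decay, at 97.0. SEC61G, a subunit of the ER translocation channel, stood at 95.7 and BTN3A1, a butyrophilin sensed by gamma delta T cells, at 95.4. CEP97 (94.6), UBN2, a partner of the HIRA histone chaperone (94.5), ARID5B, a DNA-binding protein of the ARID family (94.4), and DDX52, an RNA helicase (94.3), completed the first 15. BTN3A1 alone of these 15 had a CpG ratio under 0.4, at 0.275.

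Several of these peaks lay away from the 5′ end that made the promoter GC-poor. The median summit of SRP54 was 1007 bp downstream, 1 bp from the start of another SRP54 transcript, where the GC content was 57.2%. For UHMK1 the summit lay 556 bp downstream, at 58.5% GC, and for UBN2 845 bp downstream, at 66.6% GC. In ZKSCAN3, RIOK2 and DDX52 the summit lay 46, 12 and 30 bp upstream of the 5′ end, at 47.0%, 48.0% and 48.2% GC.

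Summit positions were measured over all marked members. Among the 222, the median of the 5 libraries' summits lay within 100 bp of the 5′ end in 65 and more than 500 bp away in 84. The nearest annotated start was the member's own most 5′ end in 74, another transcript of the same gene in 102, another protein-coding gene in 33 and a gene that is not protein-coding in 13. The own end was nearest in 33.3% of the 222 and in 32.3% of the 4069 others marked in all 5, and another transcript of the gene in 45.9% and 37.4%, shares that were not tested. In the 1 kb centred on the summit, 133 of the 222 (59.9%) were still under 49% GC and 89 were not, with a range from 31.4% to 68.7%. Over the 5 libraries the median signed position of members' summits was 262 ± 28.9 bp downstream (SD, n = 5), against 34.8 ± 5.50 bp for the others (SD, n = 5). The median distance in either direction was 377.6 ± 37.3 bp in members and 319.7 ± 8.54 bp in the others, a difference of 57.9 bp in the same direction in 5 of 5 libraries (exact sign-flip permutation p = 0.0625, the smallest possible; 0.0833 adjusted). Measured from the nearest annotated start of the gene, the difference was 2.40 bp (exact permutation p = 0.8125), and among solitary promoters it was 24.8 bp (exact permutation p = 0.375). It was 87.9 bp at equal list lengths, 134.1 bp for members under 45% GC and 300.3 bp with peaks counted within 2.5 kb (exact permutation p = 0.0625 each).

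**Figure D3:**
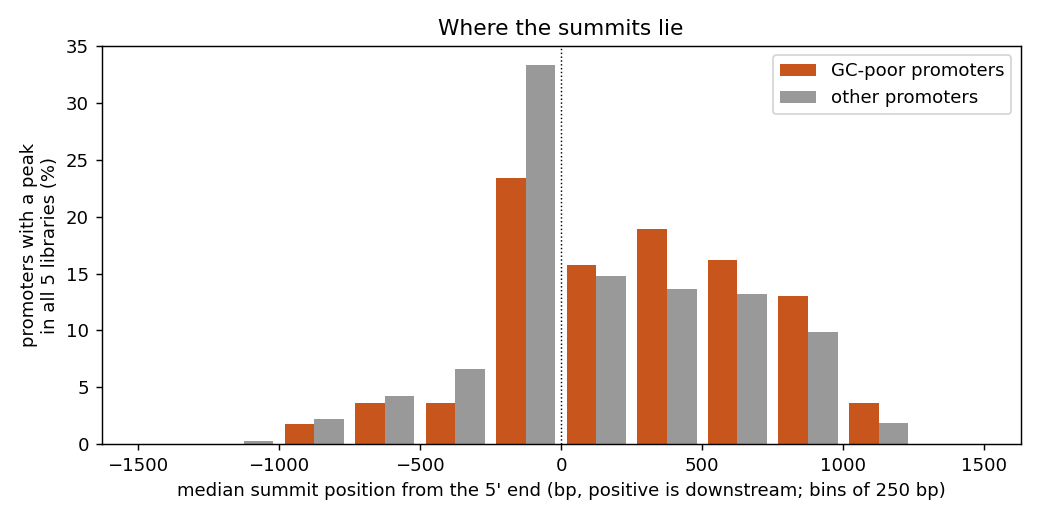
Position of the median H3K4me3 summit relative to the most 5′ end (x axis, bp, bins of 250 bp, positive is downstream) for promoters marked in all 5 libraries, as a percentage of GC-poor and of other promoters (y axis). The bin just upstream of the 5′ end held 23.4% of GC-poor and 33.3% of other promoters, and the bin from 750 to 1000 bp downstream held 13.1% and 9.86%.

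Where every annotated transcript start of the gene was used in place of the most 5′ end, 508 of the 3961 genes (12.8%) were marked in all 5 libraries and 1110 in at least 1. Of the 3475 with no peak at the most 5′ end, 231 were marked in all 5 libraries at another start. They included RPL4, a protein of the large ribosomal subunit, PSMA6, a proteasome subunit, and RAB11A, a GTPase of recycling endosomes. Among the other promoters, 29.9% were marked in all 5 in this count.

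Peaks at marked members and at the others differed little in size. The median number of bases under peaks was 230, 171 and 151 in control and 197 and 190 in HA-Bcl-xL libraries, against 212, 165 and 144 and 185 and 177 at the other promoters. Members had more in 5 of 5 libraries, by 0.09 on the log2 scale on average (exact sign-flip permutation p = 0.0625, the smallest possible; 0.0833 adjusted), and the sign turned to -0.14 for members under 45% GC. The difference was 0.24 with peaks counted within 500 bp, 0.15 within 2.5 kb, 0.13 at equal list lengths and 0.13 among solitary promoters. Their median percentile of peak strength was 67.6 ± 2.59, against 66.6 ± 1.84 (SD, n = 5 each). That difference of 1.03 points (exact permutation p = 0.125) turned negative in 3 of the alternatives.

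Promoters with a neighbour were marked more often than solitary ones. The 302 members with another protein-coding 5′ end within 2 kb were marked in 39.4%, 34.8% and 31.1% of cases in control and 36.8% and 34.4% in HA-Bcl-xL libraries. The 3659 solitary members were marked in 7.57%, 5.90% and 5.47%, and in 7.05% and 6.78%. The difference was 28.7 percentage points on average, in 5 of 5 libraries (exact sign-flip permutation p = 0.0625, the smallest possible; 0.0833 adjusted). Among members under 45% GC it was 17.1 points. CpG content was not held equal in this comparison. Of the 3659 solitary members, 228 had a CpG ratio of at least 0.6, out of 302 members with such a ratio. With a neighbour of at least 49% GC, 52 of 146 members (35.6%) were marked in all 5 libraries, and with a GC-poor neighbour 26 of 156 (16.7%). A peak between 2 such starts cannot be assigned to 1 of them.

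The strongest peaks at paired members included those at SLC7A8, TRMT1, PBLD and RPN2. SLC7A8, a transporter of large neutral amino acids, had the highest mean percentile of the 222, 99.1, with 65, 59 and 35 fragments at the summit in control and 52 and 54 in HA-Bcl-xL libraries. Its summit lay 866 bp downstream of its most 5′ end at 45.8% GC, and RNF212B starts 1642 bp away. TRMT1, a tRNA methyltransferase (97.5), and RPN2, a subunit of the oligosaccharyltransferase (95.1), had their summits 801 and 576 bp downstream, at 56.0% and 60.7% GC. TRIM23, a ubiquitin ligase with a GTPase domain, and DDX5, an RNA helicase, were among the 5 lowest-GC members marked in all 5 libraries, at 35.7% and 36.1% GC, and both had a neighbour within 2 kb.

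The mark was rare at solitary promoters poor in CpG. Of 3036 members with no neighbour and a CpG ratio under 0.4, 115 (3.79%) were marked in at least 1 library and 28 (0.922%) in all 5. The share per library was 2.70%, 1.88% and 1.58% in control and 2.11% and 2.31% in HA-Bcl-xL cells, while the highest IgG share was 0.264%. The 28 are a list read from the measured marks and are described without a test. In 17 of them the 1 kb around the median summit of the 5 libraries was also under 49% GC and under a CpG ratio of 0.4. Summits of single libraries, which lay apart at some of these genes, were not classed. In the other 11, among them FRRS1, GSTM3, MPZL1, SPATA7, RUSF1, ZNF23, C2orf73, CASP8, TM4SF1 and DDX56, at least 1 of these measures was higher at the summit. GSTM3, a glutathione transferase, for example, had 48.0% GC at its most 5′ end and 65.7% at the summit, 654 bp downstream. None of the 28 had TATAAA in the 50 bases upstream, 13 had CCAAT and 4 had GGGCGG in the 200 bases upstream.

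**Figure D4:**
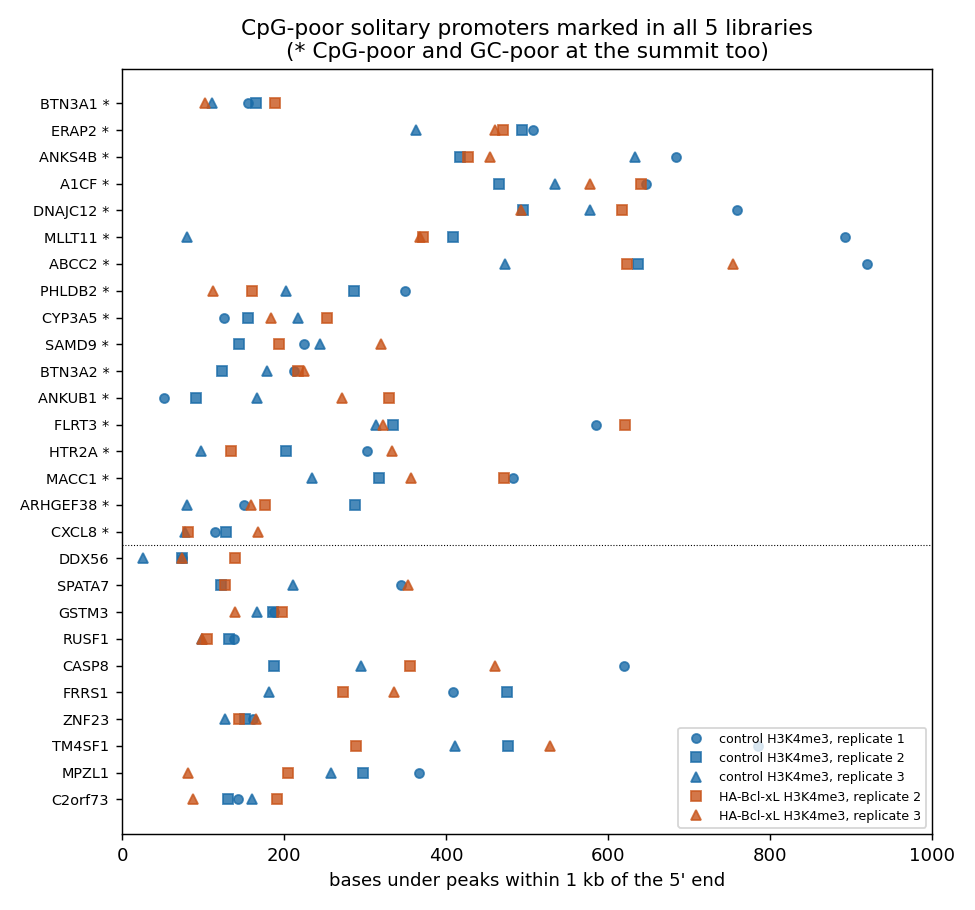
Bases under H3K4me3 peaks within 1 kb of the 5′ end (x axis) in each of the 5 libraries for 27 of the 28 solitary GC-poor promoters with a CpG ratio under 0.4 marked in all 5 (y axis, genes). The 17 with an asterisk were also GC-poor and CpG-poor around the median summit. ABCC2 reached 919 bases in control replicate 1, and CXCL8 stayed between 78 and 168.

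A1CF, ABCC2, CYP3A5, ANKS4B and MACC1 were among the 17. A1CF had 646, 465 and 534 bases under peaks in control and 641 and 578 in HA-Bcl-xL libraries. The groups overlapped, and no library had fewer than 15 fragments at the summit, whose median position was 392 bp downstream of the 5′ end. ABCC2 had 919, 637 and 472 bases in control and 623 and 754 in HA-Bcl-xL libraries. Both HA-Bcl-xL values lay inside the control range. Its median summit lay 60 bp downstream, where 37.9% of bases were G or C. The single summits lay at -33, 717 and 53 bp in control and at 596 and 60 bp in HA-Bcl-xL libraries (negative is upstream). CYP3A5, a drug-metabolising cytochrome P450, had 126, 156 and 217 bases in control and 253 and 184 in HA-Bcl-xL libraries. ANKS4B, a protein of the brush border adhesion complex, had 684, 417 and 633 in control and 427 and 454 in HA-Bcl-xL libraries. Their median summits lay 806 and 429 bp downstream at 43.7% and 42.2% GC, and the single summits of CYP3A5 lay between 392 and 813 bp. MACC1, a regulator of MET expression, had 482, 317 and 235 bases in control and 471 and 357 in HA-Bcl-xL libraries.

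BTN3A1, BTN3A2, ERAP2, SAMD9 and CXCL8, which have known roles in immunity, were also among the 17. BTN3A1 and BTN3A2, butyrophilin genes on chromosome 6 with BTN2A2 as the nearest other start of each, had summits 18 bp and 1 bp upstream of their 5′ ends. BTN3A1 had 156, 165 and 111 bases in control and 189 and 102 in HA-Bcl-xL libraries. BTN3A2 had 212, 123 and 179, and 217 and 225. Both HA-Bcl-xL values were above the control range at BTN3A2 and on either side of it at BTN3A1. ERAP2, which trims peptides for MHC class I, had 507, 493 and 363 in control and 470 and 460 in HA-Bcl-xL libraries. SAMD9, an interferon-induced antiviral gene, had only 4 CpG in its 1 kb and its summit 26 bp upstream. CXCL8 had the weakest peaks of the 28, with a mean percentile of 31.1 and 8, 9 and 6 fragments at the summit in control and 5 and 7 in HA-Bcl-xL libraries.

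The remaining genes of the 17 were DNAJC12, MLLT11, HTR2A, FLRT3, PHLDB2, ANKUB1 and ARHGEF38. DNAJC12 had 759, 495 and 578 bases in control and 617 and 492 in HA-Bcl-xL libraries. The 1 kb around its median summit had the lowest GC content of the 222 members marked in all 5, 31.4%. Its single summits lay between 33 and 773 bp downstream. HTR2A, the serotonin 2A receptor, had 302, 202 and 98 bases in control and 135 and 333 in HA-Bcl-xL libraries. FLRT3, a leucine-rich repeat adhesion protein, had 585, 334 and 314, and 621 and 322. MLLT11 had 892, 408 and 80 bases in control and 371 and 368 in HA-Bcl-xL libraries, the widest range in control cells among the 17. ANKUB1 lies next to PFN2, and its median summit was 457 bp from a PFN2 start. Its single summits lay at -993, -977 and -987 bp from its 5′ end in control and at -295 and -33 bp in HA-Bcl-xL libraries (negative is upstream).

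Neuroendocrine genes were a small part of the class. Of the 18 neuroendocrine markers checked, 5 were GC-poor: SCG2, PCSK1, SLC18A1, CPE and DDC. SCG2 was marked in all 5 libraries, with 1083, 603 and 426 bases in control and 566 and 713 in HA-Bcl-xL libraries. It had 44, 31 and 29 fragments at the summit in control and 36 and 33 in HA-Bcl-xL libraries. The peak of control replicate 1 spanned chr2:224465910-224467161, with its summit 877 bp downstream of the 5′ end. The median summit over the 5 libraries lay 529 bp downstream, at 32.4% GC. Its mean percentile was 88.4, and the CpG ratio around that median summit was 0.115.

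The other neuroendocrine members had weaker peaks or none. SLC18A1, the vesicular monoamine transporter of endocrine cells, was marked in 2 control and 2 HA-Bcl-xL libraries, with 5 to 7 fragments at the summit. PCSK1, a prohormone convertase, was marked in 2 control libraries and 1 HA-Bcl-xL library, with 9 to 12 fragments. NTS, the neurotensin precursor, was also marked in 2 control libraries and 1 HA-Bcl-xL library, with 17 and 14 fragments in control replicates 1 and 3 and 16 in HA-Bcl-xL replicate 2. None of SLC18A1, PCSK1 and NTS was called in control replicate 2. CPE, carboxypeptidase E of the granule, had no peak at its most 5′ end but one in 3 libraries at another start. DDC, which makes serotonin and dopamine from their precursors, had none at any start. Of 5 GC-poor peptide hormone genes NTS alone had a peak at its most 5′ end, and GCG, IAPP, PTHLH and VIP had none there. In longer neuroendocrine lists, 1 of 6 secretory members (SCG2) was marked in all 5 libraries, and CACNA1A, SYT4 and UCHL1 had no peak. Of 2 transcription factor members SOX4 was marked in 1 HA-Bcl-xL library and ST18 in none. Over all members 5.60% were marked in all 5 libraries and 12.3% in at least 1, and these lists of 2 to 6 promoters were not tested against them. The 13 neuroendocrine markers that were not GC-poor included CHGB, NEUROD1 and SCG3, marked in all 5, and INSM1, ISL1 and PAX6, marked in none.

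Markers of other cell types had few peaks. In longer marker lists, 0 of 9 exocrine pancreas, 0 of 12 liver and 0 of 8 blood and immune members were marked in any H3K4me3 library. Of fibroblast and endothelium members 0 of 6 were marked, and of muscle members 0 of 3. Of 7 neuron and glia members 1 was marked, in all 5 libraries, and GAD1 had a peak only at another start. Any peak was found at 12.3% of all members and at 3.79% of solitary members with a CpG ratio under 0.4. The lists were not tested against these shares. At another transcript start PLA2G1B, a secreted phospholipase of the exocrine list, was marked in all 5 libraries. ALB, AFP and the fibrinogen genes FGA, FGB and FGG were among the liver genes with none. EPCAM, the epithelial adhesion molecule, was marked in 2 control and 2 HA-Bcl-xL libraries with 5 to 10 fragments at the summit. AGR2, CDH17, CLDN4, KRT20 and REG4 had no peak at their most 5′ end. With any transcript start counted, EPCAM and AGR2 were marked in all 5 libraries and CLDN4 in fewer.

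**Figure D5:**
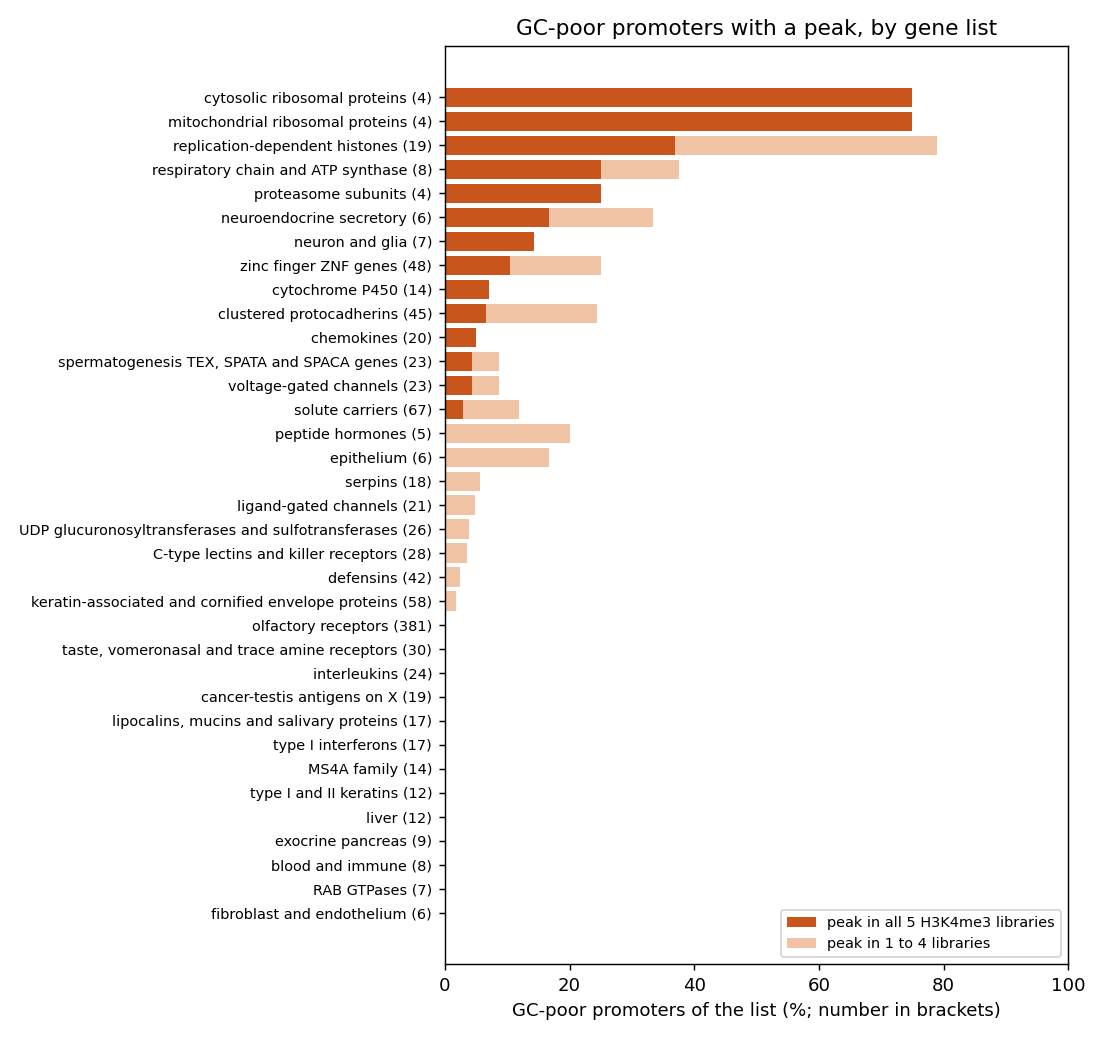
GC-poor promoters of each gene list with at least 4 of them (y axis, number in brackets) that had a peak in all 5 H3K4me3 libraries (dark) or in 1 to 4 (light), as a percentage of the list's GC-poor promoters (x axis). Ribosomal protein and histone genes lie at the top, and 13 lists, olfactory receptors among them, have no bar.

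Large tissue-restricted families were unmarked almost throughout. Over all members 12.3% had a peak in at least 1 library, and over solitary members with a CpG ratio under 0.4 it was 3.79%. The families were not tested against these shares. Olfactory receptors were the largest, with 381 of their 414 promoters in the class, and 0 of the 381 had a peak at the most 5′ end in any H3K4me3 library (4 had one at another start), a count that allows a share of up to 0.787%. No peak was called either at 30 taste, vomeronasal and trace amine receptors, 24 interleukins, 19 cancer-testis antigens on X, 17 type I interferons, 17 lipocalins, mucins and salivary proteins, 14 MS4A genes and 12 keratins. One promoter each was marked, in fewer than all 5 libraries, among 58 keratin-associated and cornified envelope genes (SPRR2D), 42 defensins (DEFB125), 28 C-type lectins and killer receptors (KLRC3), 26 UDP glucuronosyltransferases and sulfotransferases (UGT1A8) and 21 ligand-gated channels (GABRA6). The peaks at SPRR2D, DEFB125 and UGT1A8 were in 1 library each with 3 fragments at the summit. Several of these families hold near-identical copies, and how reads that align to more than 1 copy were treated is not given in the sources used here.

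Several families had 1 member marked in all 5 libraries: 1 of 20 chemokines (5%), 1 of 14 cytochrome P450 genes (7.14%), 1 of 23 voltage-gated channels (4.35%) and 1 of 23 TEX, SPATA and SPACA genes of spermatogenesis (SPATA7, 4.35%), shares near the 5.60% of all members. CXCL8 was the only one of 20 GC-poor chemokine promoters with a peak, and CXCL9, CXCL10 and CXCL11 had none. CYP3A5 was the only one of 14 cytochrome P450 promoters with a peak, and its neighbours CYP3A4 and CYP3A43 had none. KCNE4, a potassium channel subunit, was the only one of 23 voltage-gated channel members marked in all 5 libraries, with 353, 115 and 139 bases in control and 189 and 95 in HA-Bcl-xL libraries. SCN8A, a sodium channel, was marked in 1 control and 2 HA-Bcl-xL libraries.

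Clustered protocadherins, cell surface proteins of which single cells express a few, had 45 of 53 promoters in the class. PCDHA10, PCDHA4 and PCDHB5 were marked in all 5 libraries (6.67%, near the 5.60% of all members), a further 8 in fewer, and 34 in none. PCDHA10 had 296, 358 and 207 bases in control and 377 and 415 in HA-Bcl-xL libraries, and both HA-Bcl-xL values were above the control range. PCDHA4 had 331, 308 and 293, and 379 and 299. Their summits lay 26 and 30 bp upstream of their own 5′ ends, and PCDHB5 had its summit 394 bp downstream.

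Lists of broadly expressed genes varied in the share marked, against 5.60% of all members marked in all 5 libraries. Replication-dependent histone genes, which encode the histones deposited during DNA synthesis, had 19 promoters in the class, of which 7 were marked in all 5 libraries (H1-3, H2BC18, H2BC3, H3C10, H3C11, H3C4 and H3C6) and 15 in at least 1. Their near-identical copies carry the same limit on multiply aligned reads. Cytosolic ribosomal protein genes had 3 of 4 marked in all 5 (RPL41, RPS26 and RPS27A), and mitochondrial ones 3 of 4 (MRPL1, MRPL54 and MRPS10). Of 8 respiratory chain members NDUFC1 and NDUFS4 were marked in all 5, and of 4 proteasome members PSMB5. Of 555 zinc finger genes 48 were members, with 5 marked in all 5 (ZKSCAN3, ZNF131, ZNF23, ZNF608 and ZSCAN26). Of 7 RAB GTPases, 2 splicing RNP proteins and 1 translation initiation factor, none had a peak at the most 5′ end. Solute carriers had 67 members, of which SLC7A8 and SLC38A4 (2.99%) were marked in all 5. The differences between lists were not tested.

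No difference between the lines was detected in the share of GC-poor promoters marked. Control cells had 8.51% ± 1.33 (SD, n = 3) and cells with HA-Bcl-xL 9.10% ± 0.303 (SD, n = 2), and both HA-Bcl-xL values lay inside the control range. HA-Bcl-xL exceeded control by 0.593 percentage points (exact permutation p = 0.6), and 2 libraries against 3 cannot give a p below 0.2. When every list was shortened to the length of the shortest, by −log10 p, HA-Bcl-xL exceeded control by 0.00421 points (exact permutation p = 1). With 1 library left out the difference ranged from 0.0505 points without control replicate 3 to 1.34 without control replicate 1, and it was 0.391 without control replicate 2 and 0.379 without HA-Bcl-xL replicate 2. With peaks counted within 2.5 kb it was 0.943 points, and with any transcript start 1.87 points (exact permutation p = 0.6 each).

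The members with a peak in each HA-Bcl-xL library but none in control numbered 8, or 0.202% of members, against a background of 0.846% of all promoters. Among promoters with a peak in at least 1 library, these were 8 of 486 members and 170 of 9698 protein-coding promoters, which was not tested. With 1 library left out such members numbered 10 to 28: 26 and 14 without control replicates 1 and 3, and 27 and 28 without HA-Bcl-xL replicates 2 and 3. The 8 included ITPKB, CHD2, ENSG00000286224, PCDHGB1, SPATA6L, HMGN5 and SH3BGRL, and HMGN5 and SH3BGRL share a peak between starts 189 bp apart. That peak rested on 8 and 7 fragments. Members marked in all 3 control and no HA-Bcl-xL library numbered 3, or 0.0757%, against a background of 0.249%, and 5 to 14 with 1 library left out: 6, 5 and 8 without control replicates 1, 2 and 3, and 14 and 10 without HA-Bcl-xL replicates 2 and 3. Among promoters with any peak, the control-only ones were 3 of 486 members and 50 of 9698 protein-coding promoters. The 3 were SGTB, a co-chaperone, FAM135A, and ELAVL2, a neuronal RNA-binding protein. SGTB had 15, 7 and 9 fragments at the summit, FAM135A 12, 9 and 8, and ELAVL2 12, 10 and 8. With the distance widened to 2.5 kb, FAM135A was marked in each HA-Bcl-xL library, SGTB in 1 of them, and CHD2 in 2 of the 3 control libraries.

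Peak size was compared between the lines with limma, on log2 bases under peaks at promoters marked in all 5 libraries, each library centred on its median. Of 4291 promoters tested, 0 passed an adjusted p of 0.05, a background of 0%, and 211 had an unadjusted p under 0.05. None of the 222 members passed, 2 passed without HA-Bcl-xL replicate 3, and 13 had an unadjusted p under 0.05. The median log2 difference of the members was -0.0048, with 109 of 222 higher in HA-Bcl-xL cells. The smallest p among members was that of MRPS10, a mitochondrial ribosomal protein, which had 420, 215 and 290 bases in control and 87 and 142 in HA-Bcl-xL libraries. Its groups did not overlap, and its log2 difference of -1.55 ± 0.43 (SE) had a limma adjusted p of 0.82.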

How the data were processed

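CUT&RUN peak lists of 11 libraries were used, 1 per library. The submitters' processing notes name hg19, bcl2fastq 2.20, Trimmomatic 0.36, Bowtie2 2.2.9, MACS2 2.1.1 and deepTools 3.5.1. Options, duplicate treatment and control are not given in the sources used here. Each deposited list gives a score (10 times the −log10 q, rounded down), a fold ratio, a −log10 p and a −log10 q per peak, all the authors' values, used only to rank, filter or solve fragments within a list. No list gives read totals.

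Promoters came from GENCODE release 44 on GRCh37 with the GRCh37 sequence (pysam 0.24.0). Exact two-sided permutation tests were run on shares (scipy 1.17.1), with Benjamini-Hochberg adjustment over 8 tests, and peak sizes with limma 3.58.1 in R 4.3.3. Overlap and limma steps were tested on simulated data. Python 3.11.15, numpy 2.4.6, pandas 2.3.3 and matplotlib 3.10.9 were used.

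The members and the 41 gene lists were chosen with earlier results of these data known. Named genes were the first 15 solitary and 5 paired members by mean percentile without an IgG peak, the 5 lowest in GC, up to 5 marked in 1 line only, list members marked in at least 3 libraries, and the 3 on each side of the threshold. Others named, such as the 28 CpG-poor ones and family members, were chosen after their values were seen. Some genes that this rule names are not reported here. Other settings tried were equal list lengths, only peaks with −log10 q of 5 or more, windows of 500 bp and 2.5 kb, a GC limit of 45%, any transcript start, removal of IgG-overlapping peaks, summit position, solitary promoters, no olfactory receptors, a CpG split of 0.4, no centring, each library left out in turn, and a replicate block.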

Additional observations from a re-analysis of the deposited data

How the results depend on the processing

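Of 114 values from other settings 98 kept direction and side of the p threshold of 0.05 (counts, within 1.5 times). With 1 library left out, 54 of 66 did. Among the permutation tests, only that of H3K4me3 against IgG could give a p under 0.05. The others had a smallest possible p of 0.0625, or 0.2 between lines, so their side could not change and only direction was checked. A summit distance difference of 2.40 bp (exact permutation p = 0.8125) therefore counted as kept. The sizes of values counted as kept could still change several-fold, as the summit distances, the difference between lines and the excess over IgG did in the report. The difference in median percentile between GC-poor and other promoters turned to -1.50 within 500 bp, -3.53 for members under 45% GC and -1.05 with any transcript start, and the log2 difference in bases under peaks to -0.14 under 45% GC. Members marked in all 5 libraries numbered 80 under 45% GC and 508 with any transcript start. Members marked in HA-Bcl-xL libraries only numbered 5 under 45% GC and 21 with any transcript start, and 10 to 28 with 1 library left out. Without control replicate 1 or 3 they numbered 26 and 14, and without HA-Bcl-xL replicate 2 or 3, 27 and 28. Members marked in control only numbered 1 at a −log10 q of at least 5, 5 at equal list lengths, 1 within 2.5 kb, 6 within 500 bp, 0 under 45% GC and 5 to 14 with 1 library left out. They numbered 6, 5 and 8 without control replicates 1, 2 and 3, and 14 and 10 without HA-Bcl-xL replicates 2 and 3. These counts change by construction where fewer libraries or promoters enter, and for the others the cause was not tested. Promoters passing limma on bases under peaks numbered 1 within 500 bp and 0 to 9 with 1 library left out: 1 without control replicate 2, and 3 and 9 without HA-Bcl-xL replicates 2 and 3 (2 of the 9 GC-poor, and none of the others), where the lone HA-Bcl-xL library is assumed to vary like the control libraries.

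Replicate numbers are shared by the groups, and with a replicate block HA-Bcl-xL exceeded control by 1.34 points (exact permutation p = 0.5), the H3K4me3 excess over IgG was 8.62 points (exact permutation p = 0.0625, the smallest 5 pairs can give), and limma passed 13 promoters, 1 of them GC-poor. Deviations of same-numbered libraries correlated at 0.0258 and 0.0483 over 4291 promoters, and those of control replicate 1 and HA-Bcl-xL replicate 2 at 0.0252. The deviations were taken within each line, so those of the 2 HA-Bcl-xL libraries mirror each other. These correlations therefore cannot show whether same-numbered libraries belong together, which is not given in the sources used here. Depth limits single promoters: member peaks rest on medians of 11 to 15 fragments.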
